A study of Mus musculus with 10 samples.

Results

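Genes that mark the stem cells at the base of the mouse intestinal crypt were followed through single-cell and small-clump transcriptomes of the small intestine. The 10 genes are Lgr5, Ascl2, Olfm4, Gkn3, Smoc2, Slc12a2, Rgmb, Igfbp4, Clca4 and Nrn1, chosen by symbol from the 18022 genes listed over all plates, and all 10 were listed. The material was small intestinal crypts of C57Bl/6 mice, with no age, genotype or treatment given in the labels. In 3 plates the wells held doublets or triplets of cells that still adhered after mild dissociation and were picked by mouth pipette (picked plates 1 to 3). In 7 plates the wells held sorted single cells: 2 carry the experiment code GK5b, ending in G (plate 1) and L (plate 2), and 5 carry the code GK5a (plates 1 to 5). Transcripts were counted by CEL-seq2, which primes on the poly(A) tail and gives every captured molecule a random barcode, so that 1 molecule counts once whatever the length of the gene.

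Crypt base columnar stem cells sit between Paneth cells at the bottom of the crypt and renew the epithelium. Wnt signalling keeps them dividing: R-spondins bind the receptor Lgr5, which raises the response to Wnt, and the transcription factor Ascl2, itself a Wnt target, keeps the stem cell programme on. Daughters that leave the base lose these genes and become absorptive enterocytes or secretory goblet, Paneth, enteroendocrine and tuft cells.

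Wells with at least 1000 transcripts were used, which left 501 picked and 1615 sorted wells. Summed over used wells, the plates held 821829 to 1232614 transcripts in the picked group and 1022859 to 4832581 in the sorted group. The median well held 3585 transcripts in picked plates and 7937 in sorted plates, so detection was compared after drawing 3000 transcripts per well, at which 58.5% of picked wells and 80.1% of sorted wells (1293) remained. None of the 5278 pairs of same-numbered used wells in different plates held identical values. Which animals a plate came from is not in the labels. All GK5a plates share the tag M2 in their titles, whose meaning is not given, so they may come from a common source. Each p-value therefore reflects only how these plates vary, which may be technical. Picked and sorted plates also differ in experiment code and in cells per well, and these cannot be told apart. Fewer stem cells and less marker RNA per stem cell cannot be told apart in a plate sum, nor in a well that holds several cells.

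The 3 genes with the largest differences between Lgr5-positive and Lgr5-negative wells, described further on, all have a start site in the RefSeq promoter table of the GRCm38.p6 build. The 250 bases before each start are shown because these genes moved together. Capitals mark CCAAT (either strand) and TATAAA (either strand).
Ascl2 (chr7:142969265-142969514, minus strand): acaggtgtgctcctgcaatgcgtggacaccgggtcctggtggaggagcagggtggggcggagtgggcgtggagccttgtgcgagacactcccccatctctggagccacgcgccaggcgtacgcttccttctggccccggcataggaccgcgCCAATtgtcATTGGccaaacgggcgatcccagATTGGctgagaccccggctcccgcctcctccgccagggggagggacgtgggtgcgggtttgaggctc
Igfbp4 (chr11:99040994-99041243, plus strand): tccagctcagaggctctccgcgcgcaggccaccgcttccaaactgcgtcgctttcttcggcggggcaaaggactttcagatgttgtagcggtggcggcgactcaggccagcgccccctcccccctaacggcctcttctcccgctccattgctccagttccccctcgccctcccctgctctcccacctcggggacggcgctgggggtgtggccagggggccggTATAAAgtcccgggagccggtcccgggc
Gkn3 (chr6:87388936-87389185, minus strand): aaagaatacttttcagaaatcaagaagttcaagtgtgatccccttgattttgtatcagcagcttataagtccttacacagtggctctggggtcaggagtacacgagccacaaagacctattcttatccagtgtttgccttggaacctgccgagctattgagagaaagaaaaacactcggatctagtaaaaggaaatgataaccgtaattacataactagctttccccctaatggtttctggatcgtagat
The Ascl2 promoter held 3 CCAAT matches, 99, 90 and 67 bases before the start, and the Igfbp4 promoter 1 TATAAA match, 28 bases before it. The Gkn3 promoter held none of the motifs searched. The core forms bound by the Wnt effectors TCF and LEF (the form CTTTGAA, the form CTTTGAT, the form CTTTGTA or the form CTTTGTT, both strands) were found in 0 of the 7 promoters listed for 5 of the genes, while 14.8% of all 32851 promoters in the table held at least 1. The E-box CAGCTG was likewise found in 0 of the 7, against 13% of all promoters. So few windows cannot show that either site is lacking. CCAAT was found in 4 of the 7, against 33.85% of all promoters, and TATAAA in 3 of the 7, against 12.4%. The Rgmb windows with TATAAA overlap and hold the same match, so these 3 windows hold 2 separate sites. In neither of these Rgmb windows were the bases after the start found in a listed transcript of the gene. The CCAAT matches lie in promoters of Ascl2, Olfm4 and Rgmb, the TATAAA matches in those of Igfbp4 and Rgmb.

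The genes differed widely in how often a well held them. Lgr5 (GRCm38 chr10:115450311-115587780, minus strand) was detected at 3000 transcripts in 8.57%, 8.65% and 5.70% of wells in picked plates 1 to 3. In sorted plates its share was 2.91% and 13.97% in GK5b plates 1 and 2, and 18.4%, 23.01%, 19.6%, 17.4% and 19.1% in GK5a plates 1 to 5. All 3 picked plates lay below every sorted plate but GK5b plate 1, which lay below all others.

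Ascl2 was close to Lgr5, at 8.46% ± 2.35 of wells in picked plates and 14.996% ± 6.01 in sorted plates (SD, n = 3 and 7). Slc12a2, the sodium, potassium and chloride cotransporter of the basolateral membrane, and Clca4, of the chloride channel accessory family, were the most widely detected. Slc12a2 was found in 45.6% ± 7.28 of picked and 67.9% ± 6.77 of sorted wells, and Clca4 in 65.8% ± 12.6 and 71.3% ± 6.96. For Slc12a2 the plates of the groups did not overlap, with 51.95% the highest picked and 60.6% the lowest sorted value. How many of all genes separate in this way by detection was not computed, here or for the genes that follow. Smoc2, a secreted calcium-binding matrix protein, was found in 19.6% ± 5.71 of picked and 35.9% ± 6.46 of sorted wells.

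Rgmb, a membrane-anchored coreceptor for bone morphogenetic proteins, was found in 3.18% ± 0.866 of picked and 15.5% ± 5.10 of sorted wells, and the highest picked plate, at 3.84%, lay under the lowest sorted plate, at 5.54%. Igfbp4, a secreted binder of insulin-like growth factors, was found in 10.8% ± 3.17 of picked and 12.6% ± 2.93 of sorted wells, and the groups overlapped. Gkn3, a secreted gastrokine, and Nrn1, the membrane-anchored protein neuritin, were rare. Gkn3 reached 1.58% ± 1.11 of picked and 4.86% ± 1.80 of sorted wells, and Nrn1 0.962% ± 1.28 and 5.24% ± 1.14. For Nrn1 the highest picked plate, at 2.42%, lay under the lowest sorted plate, at 2.84%.

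Olfm4, a secreted glycoprotein used as a stem cell marker in mouse and human crypts, was the rarest in sorted plates, at 1.56% ± 0.373 of picked and 1.77% ± 0.978 of sorted wells. Even at full depth only 14 of 501 picked and 92 of 1615 sorted wells held a transcript of it. In GK5a plate 1 its share at 3000 transcripts was 0.

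Levels summed over each plate gave a similar order. They are given in CPM, a plate's transcripts of a gene over its total, with totals adjusted by the TMM method (trimmed mean of M values). Clca4 averaged 787.8 ± 261.02 CPM in picked and 1491 ± 468 CPM in sorted plates, and Slc12a2 339.8 ± 91.9 and 741 ± 142.96 CPM. Smoc2 averaged 106.6 ± 36.1 and 174.3 ± 29.1 CPM. Among the 4 genes near 50 CPM the neighbours could not be told apart by their spread: sorted plates gave 74.99 ± 31.3 for Lgr5, 60.5 ± 24.9 for Ascl2, 51.3 ± 23.2 for Rgmb and 46.6 ± 13.2 for Igfbp4. Gkn3, at 18.97 ± 7.37 CPM, and Nrn1, at 15.8 ± 2.98 CPM, stood above Olfm4, at 6.21 ± 3.12 CPM, in sorted plates.

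The symbol Clca4 needs care. RefSeq lists it as an older name of the paralogs Clca3b and Clca4a, and reads shared by such copies may have been split or pooled in counting. Its values are those listed under the name Clca4.

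**Figure D1:**
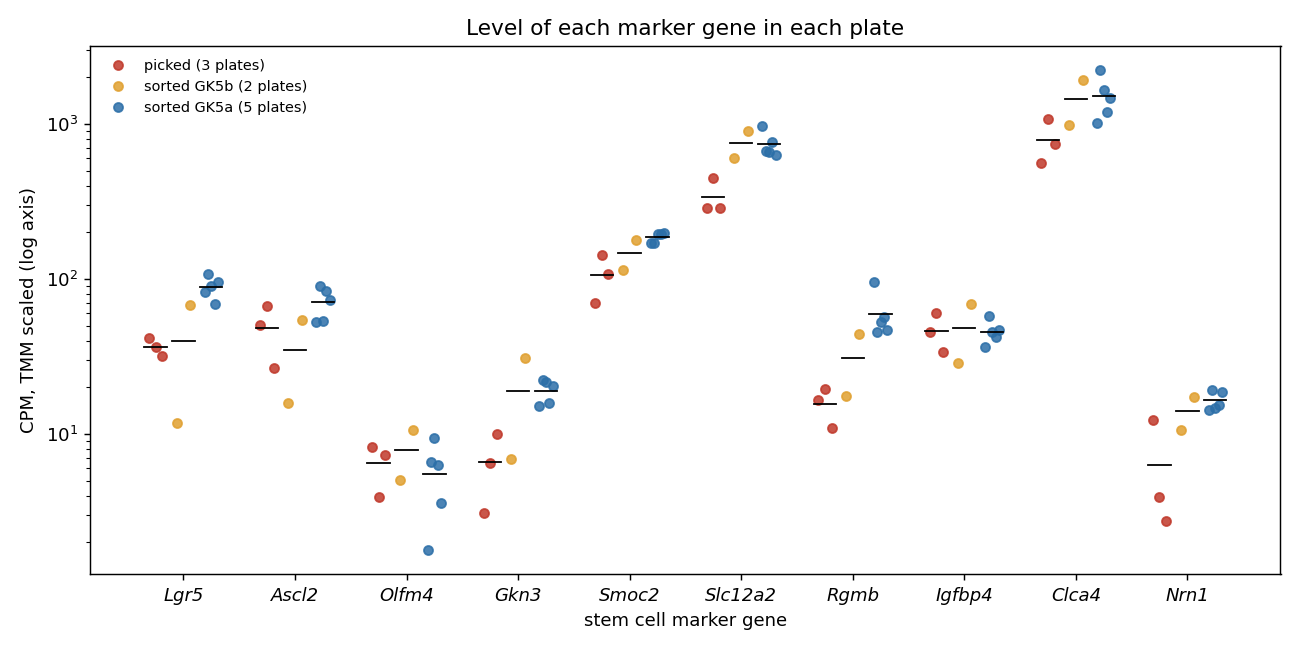
Level of each marker gene in CPM (log axis) in each plate, with picked plates left of sorted GK5b and sorted GK5a plates; each point is a plate and each bar the mean of its group. The 3 picked plates lie below all 7 sorted plates for Slc12a2, and GK5b plate 1 has the lowest Lgr5 level, at 11.8 CPM.

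Picked clumps held less of 6 of the 10 genes than sorted cells. Slc12a2 had 287.8, 446 and 285.7 CPM in picked plates 1 to 3, against 599 to 971 CPM (median 669) in sorted plates. Of the 10 genes it alone had every picked plate below every sorted plate, as did 15.3% of the 10427 genes tested. Its log2 fold change, on the log2(CPM + 1) scale used for all plate comparisons, was -1.13 ± 0.19 (SE), with an adjusted p of 0.000869 (limma, Benjamini-Hochberg over all genes).

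Rgmb had 16.5, 19.6 and 10.98 CPM in picked plates, against 17.6 to 95.4 CPM (median 46.6) in sorted plates, and fell by 1.55 ± 0.37 on the log2 scale (limma, adjusted p = 0.00815). Nrn1 had 12.4, 3.92 and 2.75 CPM in picked plates, against 10.7 to 19.3 CPM (median 15.4) in sorted plates. It fell by 1.397 ± 0.34 (limma, adjusted p = 0.00908). For both genes the overlap was between GK5b plate 1 and the highest picked plate.

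Gkn3 had 3.10, 6.53 and 10.1 CPM in picked plates, against 6.93 to 30.7 CPM (median 20.3) in sorted plates, and fell by 1.41 ± 0.40 (limma, adjusted p = 0.0173). Smoc2 fell by 0.74 ± 0.22 (limma, adjusted p = 0.0202) and Clca4 by 0.91 ± 0.27 (limma, adjusted p = 0.0216). In limma's fit over all genes 19.5% were called lower in picked plates, so the 6 of 10 stand beside that background. Among the 6, Gkn3 and Nrn1 passed the filter on low genes only through the sorted plates, where they are high. That filter asked for 10 transcripts, scaled to the median library, in 3 plates. Gkn3 had 3, 5 and 11 transcripts in picked plates 1 to 3, and Nrn1 12, 3 and 3. Their calls are therefore not counted as support. The median over the 10 genes was -0.85, and over all genes -0.15. Over all genes 1323 were called higher and 2034 lower, against 837 and 3472 with library totals in place of TMM, where the median of all genes was -0.40, and 1567 and 1543 with median-of-ratios size factors. Without picked plate 1 the calls of Gkn3 (-1.03, limma, adjusted p = 0.0895), Smoc2 (-0.47, limma, adjusted p = 0.110) and Clca4 (-0.69, limma, adjusted p = 0.110) were lost, and that of Clca4 also without picked plate 3 (limma, adjusted p = 0.0646). Clca4 passed in 18 of all 22 alternative settings. With voom precision weights Rgmb (-1.52, limma, adjusted p = 0.132), Nrn1 (-1.45, limma, adjusted p = 0.0757) and Gkn3 (-1.40, limma, adjusted p = 0.306) missed the threshold at nearly the same size. Against the GK5b plates alone, of the 6 only Slc12a2 passed (-1.10, limma, adjusted p = 0.0242).

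The receptor itself was not among the 6. Lgr5 had 41.4, 36.6 and 32.04 CPM in picked plates, against 11.8 to 107.8 CPM (median 82.9) in sorted plates. Its picked values lay inside the sorted range because of GK5b plate 1, and the log2 fold change of -0.80 ± 0.52 did not pass (limma, adjusted p = 0.258). Without that plate it was -1.15 (limma, adjusted p = 0.000572), and against the GK5b plates alone 0.37 (limma, adjusted p = 0.703). Ascl2 (-0.27 ± 0.44, limma, adjusted p = 0.666), Olfm4 (0.14 ± 0.43, limma, adjusted p = 0.827) and Igfbp4 (0.01 ± 0.25, limma, adjusted p = 0.985) did not pass. With library totals Olfm4 (-0.08) and Igfbp4 (-0.25) turned sign, and neither passed.

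Other cell types moved with this comparison. The Paneth marker list took 1.16% to 14.9% of transcripts in picked plates, against 0.577% to 1.97% in sorted plates, and 12 of its 20 tested genes rose. Its part in the differences was not tested, beyond the fit without such wells given next. Of a list of 35 Wnt targets and other stem cell genes, 31 could be tested, of which 2 rose and 10 fell, with a median log2 fold change of -0.34. Where wells with a high share of goblet, Paneth, enteroendocrine or enterocyte markers (3% or more of their transcripts) were left out of every plate, the same fit gave -1.28 for Slc12a2 (limma, adjusted p = 0.000289). Gkn3 then had 0, 5.13 and 7.74 CPM in picked plates, against 15.6 to 45.1 CPM in sorted plates, and its fold change of -2.80 (limma, adjusted p = 0.000926) leans on the picked plate at 0 and on the pseudocount. In these wells Lgr5 passed as well, at -1.35 (limma, adjusted p = 0.0263), with 28.4, 37.6 and 34.8 CPM in picked plates, against 19.6 and 97.02 CPM in GK5b plates and 87.7 to 146.8 CPM in GK5a plates. Ascl2, at -0.61, did not (limma, adjusted p = 0.184).

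Between the sorted experiments only Lgr5 and Ascl2 passed. Lgr5 had 11.8 and 67.7 CPM in GK5b plates 1 and 2, against 82.9, 107.8, 90.6, 68.9 and 95.3 CPM in GK5a plates 1 to 5, a log2 fold change of -1.61 ± 0.45 (limma, adjusted p = 0.0355). Ascl2 had 15.96 and 54.2 CPM in GK5b plates, against 52.6, 90.5, 53.5, 83.7 and 72.9 CPM in GK5a plates, and its log2 fold change was -1.21 ± 0.36 (limma, adjusted p = 0.0470). Both calls were fragile. Without GK5b plate 1 the differences were -0.39 for Lgr5 (limma, adjusted p = 0.547) and -0.36 for Ascl2 (limma, adjusted p = 0.716). Lgr5 also missed the threshold without GK5a plate 2, 3, 4 or 5 (limma, adjusted p from 0.0545 to 0.0668), and Ascl2 without GK5a plate 2, 4 or 5 (limma, adjusted p from 0.0796 to 0.103), with little change in size. Over all 17 alternative settings Lgr5 passed in 10 and Ascl2 in 9. With GK5b plate 1 as the only GK5b plate, differences were larger for Gkn3 (-1.31, limma, adjusted p = 0.0264), Smoc2 (-0.68, limma, adjusted p = 0.0319) and Rgmb (-1.63, limma, adjusted p = 0.0184). In either fit with a lone GK5b plate, that plate is assumed to vary like the GK5a plates, and its p-values rest on their spread alone.

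The other 8 genes did not pass, with log2 fold changes from -1.01 for Rgmb to 0.49 for Olfm4. In all, 6.37% of genes were called lower in GK5b plates. Goblet-marker-high wells made up 71.6% of GK5b plate 1 and 37.9% of GK5b plate 2, against 15.6% to 16.96% of GK5a plates. With marker-high wells left out, Lgr5 stood at -1.36 (limma, adjusted p = 0.107) and Ascl2 at -0.72 (limma, adjusted p = 0.252), and neither passed.

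Wells that held Lgr5 also held more of the other markers. Each sorted plate was divided into wells with and without an Lgr5 transcript among 3000 drawn, 14.2% of 1293 wells being positive, 8 to 43 per plate, and transcripts at full depth were summed on each side. All 8 of the other genes that could be tested rose in Lgr5-positive wells, where 11.2% of the 8414 genes tested were called higher (limma 1-sample fit over 7 plates on log2(CPM + 10)). The median difference was 1.56 over these 8 genes and 0.01 over all genes. Olfm4 was too low for the test, with 0 to 65.99 CPM in Lgr5-positive wells and 0 to 8.98 CPM in Lgr5-negative wells. The positive wells had the lower median depth in 6 of the 7 plates.

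Gkn3 differed most. It had 44.5 to 114.6 CPM (median 73.9) in Lgr5-positive wells, against 3.49 to 29.25 CPM (median 10.2) in Lgr5-negative wells. The difference was 1.96 ± 0.21 on the log2 scale (limma, adjusted p = 5.21e-06), higher in 7 of 7 plates.

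Ascl2 had 91.4 and 156.9 CPM in Lgr5-positive wells of GK5b plates, against 12.6 and 47.4 CPM in their Lgr5-negative wells. In GK5a plates it had 138.8 to 245.6 CPM in positive wells, against 36.8 to 77.1 CPM in negative wells. It rose by 1.699 ± 0.13 (limma, adjusted p = 2.93e-07). Igfbp4, whose plate levels did not separate picked from sorted cells, had 94.6 to 178.9 CPM in Lgr5-positive wells, against 23.6 to 63.7 CPM in Lgr5-negative wells, and rose by 1.76 ± 0.16 (limma, adjusted p = 1.22e-06).

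Slc12a2 had 1439 to 2179 CPM in Lgr5-positive wells, against 422 to 829.5 CPM in Lgr5-negative wells, and rose by 1.61 ± 0.08 (limma, adjusted p = 4.37e-09), the smallest adjusted p of the 8. Smoc2 rose by 1.504 ± 0.08, Rgmb by 1.46 ± 0.17 and Clca4 by 1.45 ± 0.09, each in 7 of 7 plates (limma, adjusted p of 1.41e-08, 1.15e-05 and 4.82e-08). Nrn1 rose by 1.08 ± 0.24 in 6 of 7 plates (limma, adjusted p = 0.00277). In GK5b plate 1 it stood at 10.1 CPM in Lgr5-positive and 10.7 CPM in Lgr5-negative wells. In that plate Rgmb had 25.4 CPM in Lgr5-positive and 17.2 CPM in Lgr5-negative wells.

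**Figure D2:**
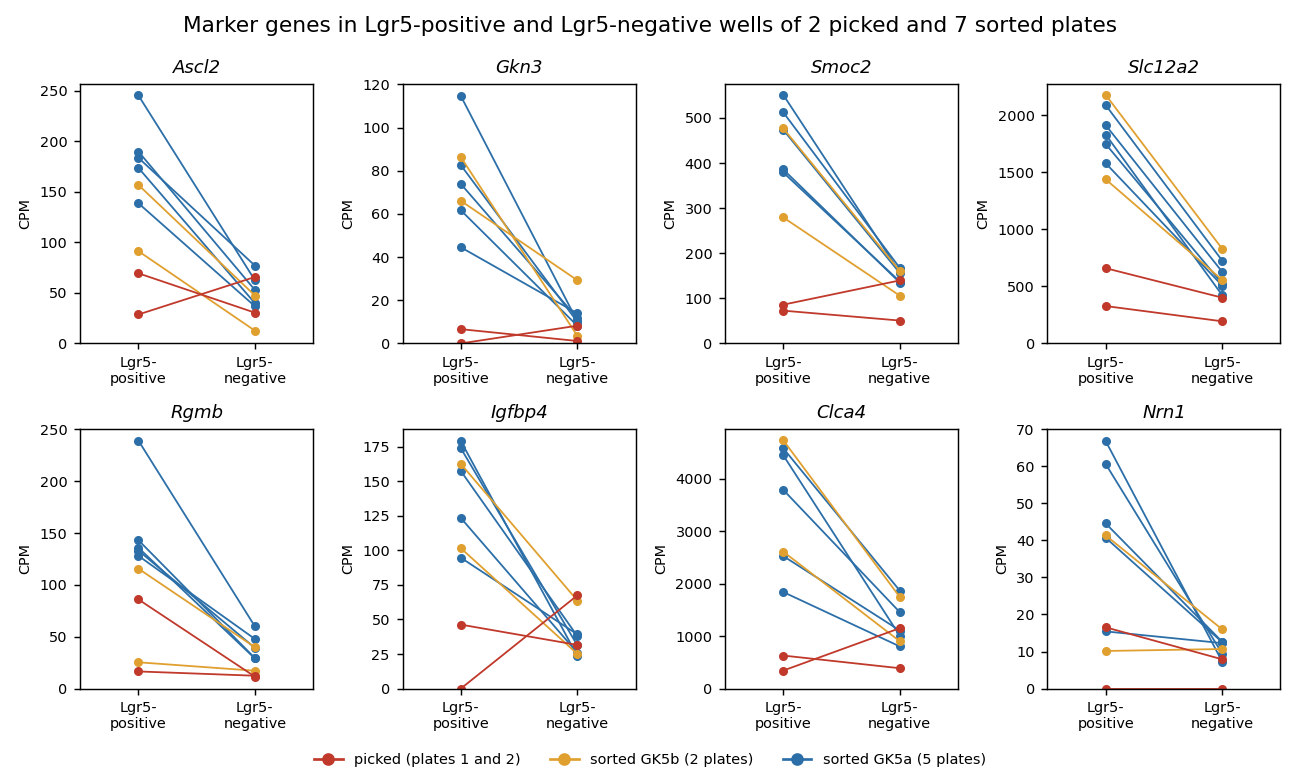
Level of 8 marker genes, in CPM of summed wells, in Lgr5-positive (left) and Lgr5-negative (right) wells; each line joins the sides of a plate, red for picked plates 1 and 2, yellow for GK5b and blue for GK5a. Lines of sorted plates fall towards the negative side for all genes except Nrn1 in GK5b plate 1, while those of picked plate 2 rise for Ascl2, Gkn3, Smoc2, Igfbp4 and Clca4.

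The genes outside the 10 with the largest rises in Lgr5-positive wells over the 7 sorted plates were led by Rgcc, a regulator of the cell cycle. It had 86.95 ± 38.1 CPM in Lgr5-positive and 11.8 ± 7.61 CPM in Lgr5-negative wells, a difference of 2.13 ± 0.26 (limma, adjusted p = 1.46e-05). Others were Slc14a1, a urea transporter (1.83), Slc1a2, a glutamate transporter (1.82), the growth factor Pdgfa (1.81), Ifitm3, an interferon-induced membrane protein (1.77), and the adaptor Sorbs2 (1.71). The guidance receptor Ephb3 (1.695), the hyaluronan receptor Cd44 (1.65) and the nuclear receptor Nr2e3 (1.65) were also among the first 10. Each of the genes named was higher in 7 of 7 plates, and their adjusted p in limma's fit lay between 8.78e-08 and 1.46e-05.

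At the other end stood products of mature cells. Clca3, a goblet cell product, had 251.7 ± 539 CPM in Lgr5-positive and 1071 ± 657 CPM in Lgr5-negative wells, a difference of -3.89 ± 0.45 (limma, adjusted p = 1.10e-05). Zg16, a lectin of goblet cells (-3.86), Defa20, a Paneth defensin (-3.75), Sis, the sucrase of the enterocyte brush border (-3.71), and Apoa1, an apolipoprotein of enterocytes (-3.56), also fell. The spread between plates was as large as the mean for some of these, such as Zg16 at 1886 ± 3514 CPM in Lgr5-positive wells, and Zg16, Defa20 and Apoa1 were higher in the positive wells of 1 of the 7 plates.

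Of the 35 Wnt targets and other stem cell genes, 25 could be tested, of which 19 rose and 2 fell. Axin2, a feedback inhibitor induced by Wnt, had 249.5 ± 42.7 CPM in Lgr5-positive and 78.996 ± 22.02 CPM in Lgr5-negative wells (difference 1.57 ± 0.11). Other risers were Sp5 (1.48), Cdca7 (1.43), Soat1 (1.38), Sox9 (1.37), Rnf43 (1.26), Aqp4 (1.24), Lrig1 (1.16), Fzd7 (1.04), Znrf3 (0.97), Kcne3 (0.85) and Phgdh (0.84). Rnf43 and Znrf3 remove Wnt receptors from the membrane, and Fzd7 is such a receptor. Hopx (0.79), Prom1 (0.77), 2210407C18Rik (0.61), Myc (0.51) and Ephb2 (0.40) rose less. Ccnd1, the cyclin of early cell cycle entry, fell by 0.34, and Zbp1, a sensor of nucleic acids, by 0.69. Lgr4, a relative of Lgr5 that also binds R-spondins, did not pass at 0.25 (limma, adjusted p = 0.0637), nor did Cyp2e1, Fgfbp1 and Bmi1.

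Of 28 proliferation genes tested, 17 rose and none fell, with a median of 0.37. Stmn1, a regulator of microtubules, rose by 0.98 ± 0.07 and the tubulin Tubb5 by 0.96 ± 0.07, each in 7 of 7 plates. The other 15 rose by 0.25 for Pcna, the sliding clamp of DNA replication, up to 0.52 for Mcm3, a subunit of the replicative helicase, among them Ccnb1 (0.51), Top2a (0.45), Mcm7 (0.45) and Cdk1 (0.40). Mki67 (0.31 ± 0.11, limma, adjusted p = 0.0567) and Rrm2 (-0.43 ± 0.20, limma, adjusted p = 0.126) did not pass. Beside these changes, 16 of 17 goblet, 17 of 17 Paneth, 10 of 11 enteroendocrine and 17 of 17 enterocyte markers that could be tested fell. Over all genes tested, 1224 of 8414 were called lower. The goblet-list gene that rose, by 0.86, was the one listed under the name Clca1. Which Clca paralog that name counts was not checked. Of 5 tuft cell markers 4 rose, among them Dclk1 at 122.8 ± 129.7 CPM in Lgr5-positive and 25.2 ± 36.1 CPM in Lgr5-negative wells, higher in 4 of 7 plates. The part of tuft cells in these differences was not tested. With marker-high wells left out, all 8 marker genes still rose, by 1.10 for Clca4 up to 1.61 for Gkn3.

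Each of the other 9 genes was then used in place of Lgr5. Over the 10 fits, 79 combinations of an index gene and another marker could be tested, all 79 differences were positive, and 69 passed (limma, adjusted over all genes of each fit). The fits share wells and reads and are no independent evidence of each other. With Slc12a2 as index, 9 of 9 rose, where 19.4% of all genes were called higher, and Lgr5 had the largest difference, at 2.49 ± 0.28. With Clca4 as index, 9 of 9 rose, but so did 27.4% of all genes. With Smoc2 it was 9 of 9 beside 21.1% of all genes, and with Ascl2 8 of 8 beside 13.2%, of which Nrn1 missed when Ascl2 was called at 2000 transcripts (0.65, limma, adjusted p = 0.0674).

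Igfbp4 as index gave 8 of 8 beside 8.01% of all genes, with Lgr5 again first at 2.03 ± 0.21, and Gkn3 gave 7 of 7 beside 5.5%, with Lgr5 at 2.05 ± 0.19. Each lost a gene at other depths. Nrn1 rose by 0.85 in Igfbp4-positive wells called at 3000 transcripts, against 0.43 at 2000 and 0.36 at 5000, where it did not pass (limma, adjusted p = 0.372 and 0.355). Rgmb rose by 0.74 in Gkn3-positive wells, and at 2000 transcripts stood at 0.39 (limma, adjusted p = 0.523). With Rgmb as index, 6 of 8 rose beside 7.79%: Gkn3 (0.32 ± 0.23, limma, adjusted p = 0.356) and Nrn1 (0.34 ± 0.20, limma, adjusted p = 0.256) did not pass. Nrn1 did pass at 2000 (1.04, limma, adjusted p = 0.00441) and 5000 transcripts (0.87, limma, adjusted p = 0.00894), while Gkn3 passed at neither.

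Nrn1 gave 2 of 7, Lgr5 (1.55 ± 0.21) and Slc12a2 (1.15 ± 0.14), beside 0.621% of all genes. It rested on 56 positive wells in 6 plates, and the count depended on the depth of the draw. At 2000 transcripts 7 of 7 passed, and at 5000 Smoc2 (1.08), Slc12a2 (1.01) and Clca4 (0.79) passed while Lgr5 did not (1.39, limma, adjusted p = 0.0875). Olfm4 gave 3 of 6 beside 0.63%: Clca4 (1.59 ± 0.13), Slc12a2 (1.34 ± 0.16) and Smoc2 (1.16 ± 0.27) rose. Only 3 plates had at least 5 wells with Olfm4, 17 wells in all. Lgr5, at 1.41 ± 0.53, did not pass there (limma, adjusted p = 0.198).

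Pairs of markers shared wells more often than their shares predicted. The number of wells expected to hold both of a pair was taken from their shares within each plate at 3000 transcripts per well, and the observed number was divided by it. In sorted plates 38 of 45 pairs had at least 5 wells expected, and all 38 ratios lay above 1, 32 of them in each of the 7 plates. Their median was 1.62, and the median over pairs within a plate lay between 1.32 in GK5b plate 1 and 1.66 in GK5a plate 3. With Lgr5, 56.2% of 8827 genes lay above 1 in sorted plates. For pairs without Lgr5, and for picked plates, no such share over all genes was computed. The counts above 1 are therefore no trait particular to these genes. Ratios are descriptions, with no test, and common genes cannot reach a high ratio.

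Of the 38 pairs Lgr5 and Gkn3 gave the largest ratio, with 32.9 wells observed and 10.9 expected, a ratio of 3.03. Gkn3 was found in 16.5% of wells with Lgr5 and in 2.67% of wells without it. Lgr5 with Nrn1 gave 2.70, with Igfbp4 2.42, with Ascl2 2.34 and with Rgmb 2.20. Ascl2, for example, was found in 38.9% of wells with Lgr5 and in 9.62% of wells without it. The ratio was 1.85 for Smoc2, 1.41 for Slc12a2, which 93.8% of wells with Lgr5 held, and 1.27 for Clca4. The lowest of the 38 pairs was Slc12a2 with Clca4, at 1.10.

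For scale, each gene was set against itself in 2 separate draws of 1500 transcripts from the same well, a smaller depth than that of the pairs. That ratio was 3.74 for Lgr5, 2.89 for Ascl2, 3.16 for Igfbp4, 2.28 for Rgmb, 1.71 for Smoc2, 1.34 for Slc12a2 and 1.297 for Clca4. Lgr5 in the first draw was found again in the second in 44.7% of wells, and in 6.12% of wells without it in the first. So even a well known to hold Lgr5 often lacked it in a second draw of this size. For the rarest genes the ratio was higher, 8.78 for Gkn3 and 5.12 for Nrn1, on 10.2 and 5.31 wells observed with 1.16 and 1.04 expected.

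Against the background of all genes with at least 5 wells expected, the partners of Lgr5 were unequal. Over 8827 genes the median ratio with Lgr5 was 1.04, and 56.2% lay above 1. Computed in the same way from the drawn transcripts, only 0.0793% of genes had a ratio as high as that of Gkn3, 0.193% as high as Nrn1, 0.283% as high as Igfbp4, 0.691% as high as Rgmb and 0.736% as high as Ascl2. The figure was 2.57% for Smoc2, 11.7% for Slc12a2 and 24.5% for Clca4. The ranking was not matched for how often a gene was found, and common genes such as Slc12a2 and Clca4 cannot reach a high ratio.

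**Figure D3:**
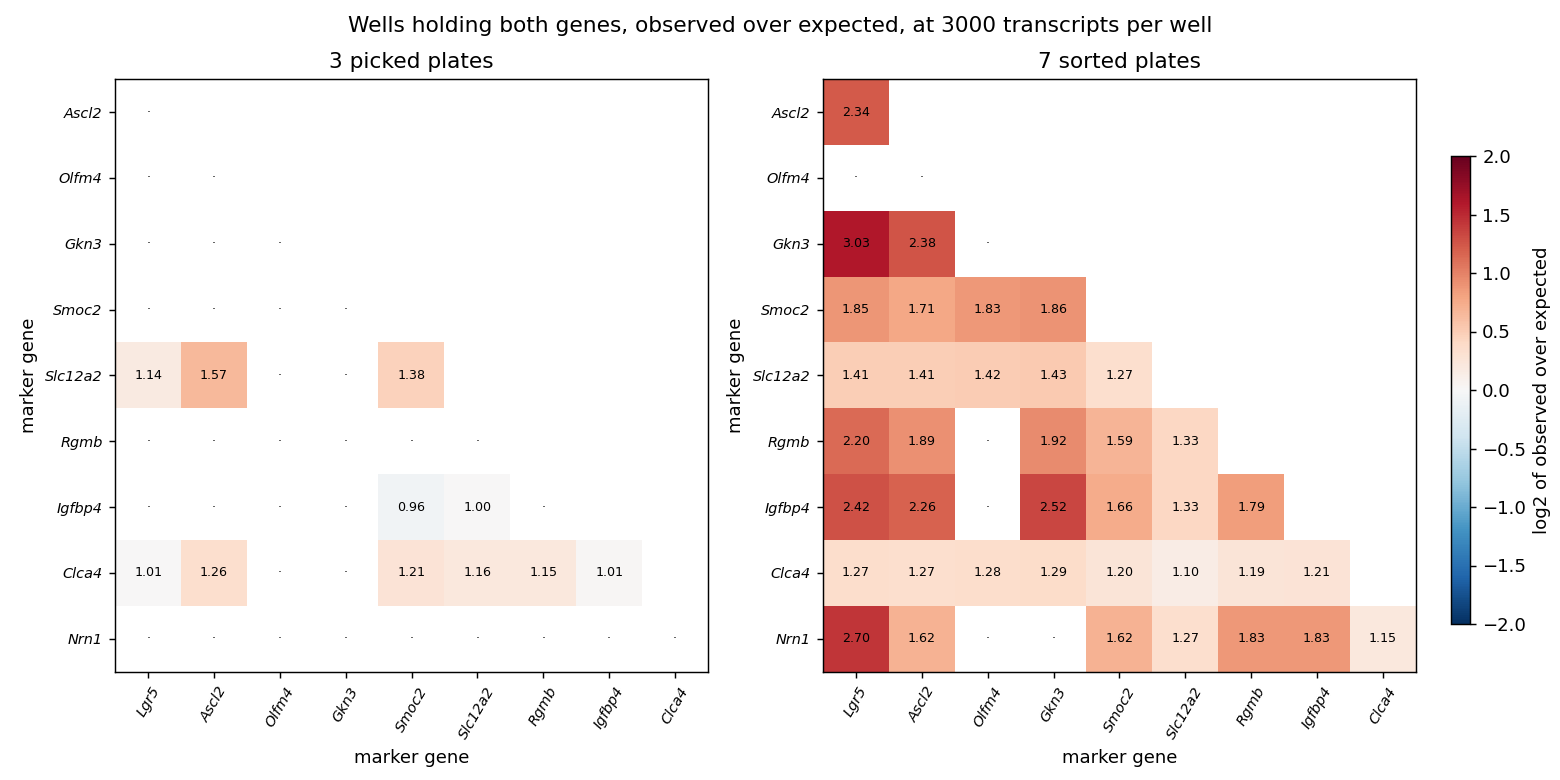
Observed over expected number of wells that hold both genes of a pair at 3000 transcripts per well, in the 3 picked plates (left) and the 7 sorted plates (right); colour is the log2 of the printed ratio, and dots mark pairs with fewer than 5 wells expected. All 38 ratios shown for sorted plates lie above 1, with Lgr5 and Gkn3 highest at 3.03, and 10 of the 11 shown for picked plates do. How many pairs of all genes lie above 1 was not computed.

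In picked plates only 11 pairs had 5 wells expected, 10 of them above 1, with a median of 1.15. Lgr5 gave 1.14 with Slc12a2 and 1.01 with Clca4, the 2 of its pairs that could be read. Ascl2 with Slc12a2 was highest, at 1.57, and Smoc2 with Igfbp4 lowest, at 0.957. Of picked wells 0.683% held at least 5 of the 10 genes in 3000 transcripts, against 14.2% of sorted wells, and 17.7% of picked and 11.4% of sorted wells held none. No well of either group held all 10.

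In picked clumps the change of 5 markers in Lgr5-positive wells was lower than in sorted cells. Only picked plates 1 and 2 had at least 5 Lgr5-positive wells, 14 and 5 of them. Smoc2 had 72.7 CPM in Lgr5-positive and 50.7 CPM in Lgr5-negative wells of picked plate 1, and 85.97 and 139.8 CPM in those of picked plate 2, a mean log2 difference of -0.10, against 1.504 in sorted plates. The difference between the groups was -1.60 ± 0.26 (limma, adjusted p = 0.0119).

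The same comparison gave -3.02 ± 0.62 for Igfbp4, -1.96 ± 0.40 for Clca4, -1.698 ± 0.42 for Ascl2 and -0.90 ± 0.18 for Slc12a2, all passing (limma, adjusted p from 0.0187 to 0.0335). Rgmb (-0.26 ± 0.49) and Nrn1 (-0.80 ± 0.54) did not pass (limma, adjusted p = 0.752 and 0.332). So 5 of these 7 were called lower, where 5.21% of all genes were. Gkn3 passed the filter on low genes through the sorted plates only, and is not counted: it had 6.61 and 0 CPM in Lgr5-positive wells of picked plates 1 and 2, against 1.13 and 8.22 CPM in their Lgr5-negative wells. Igfbp4 was at 0 in the Lgr5-positive wells of picked plate 2, which held 34903 transcripts in all. The calls rest on those 5 wells: without that plate none of the 7 passed, and Igfbp4, for example, stood at -1.33 (limma, adjusted p = 0.233). Ascl2 also missed the threshold without GK5a plate 1, 2, 3 or 5 or GK5b plate 2 (limma, adjusted p from 0.0532 to 0.0669), with little change in size.

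Wells high in markers of mature cells held the genes unequally. Of the 1293 sorted wells with at least 3000 transcripts, 29.2% were goblet-high, 39 wells Paneth-high, 22 enteroendocrine-high and 51 enterocyte-high, and 804 were high in none of these lists. Lgr5 was found in 23.05% of wells high in none (95% Wilson interval 20.2% to 26.04%), 12.05% of Paneth-high wells (5.603% to 26.7%), 7.76% of enteroendocrine-high wells (2.53% to 27.8%), 2.04% of goblet-high wells (1.08% to 4.13%) and 1.21% of enterocyte-high wells (0.347% to 10.3%). Intervals cover counting error only. They were computed from the expected number of wells rounded to a whole number, so they fit small classes of wells only roughly. Median depths were 10701 transcripts in wells high in none and 9353 in enterocyte-high wells. Whether the share in enterocyte-high wells is background was not tested.

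Ascl2 followed Lgr5, at 21.6% of wells high in none, 1.03% of goblet-high and 1.61% of enterocyte-high wells. Gkn3 was found in 7.38% of wells high in none, 0.381% of goblet-high wells and 0 of 51 enterocyte-high wells, where a count of 0 allows a share of up to 5.88% (3 of 51 wells, not a Wilson limit). Smoc2 was found in 46.1% of wells high in none, 26.6% of Paneth-high, 19.04% of goblet-high and 3.26% of enterocyte-high wells.

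The plates add to these shares unequally, since most goblet-high wells lie in GK5b plates. Within each of the 7 sorted plates Lgr5, Ascl2, Gkn3, Smoc2, Igfbp4, Clca4 and Nrn1 were found less often in goblet-high wells than in wells high in none. Olfm4 had this order too, except in GK5a plate 1, where it was 0 on both sides. Rgmb was found more often in goblet-high wells in 1 of the 7 plates. Slc12a2 did not follow this order. It was found in 77.2% of goblet-high wells (72.7% to 81.1%) and 69.6% of wells high in none (66.4% to 72.7%), against 67.2% of Paneth-high, 18.25% of enteroendocrine-high and 11.4% of enterocyte-high wells. With plates weighted equally it was found in 73.99% ± 8.66 of goblet-high wells and 69.5% ± 5.18 of wells high in none (SD, n = 7), more often in goblet-high wells in 6 of 7 plates, and the ranges overlapped. Clca4 was found in 83.7% of wells high in none, 58.6% of goblet-high and 18.2% of enterocyte-high wells. Nrn1 was found in 19.05% of enteroendocrine-high wells (7.31% to 38.5%, 22 wells) and 6.53% of wells high in none (4.97% to 8.38%), whose intervals overlap, against 2.40% of goblet-high wells.

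**Figure D4:**
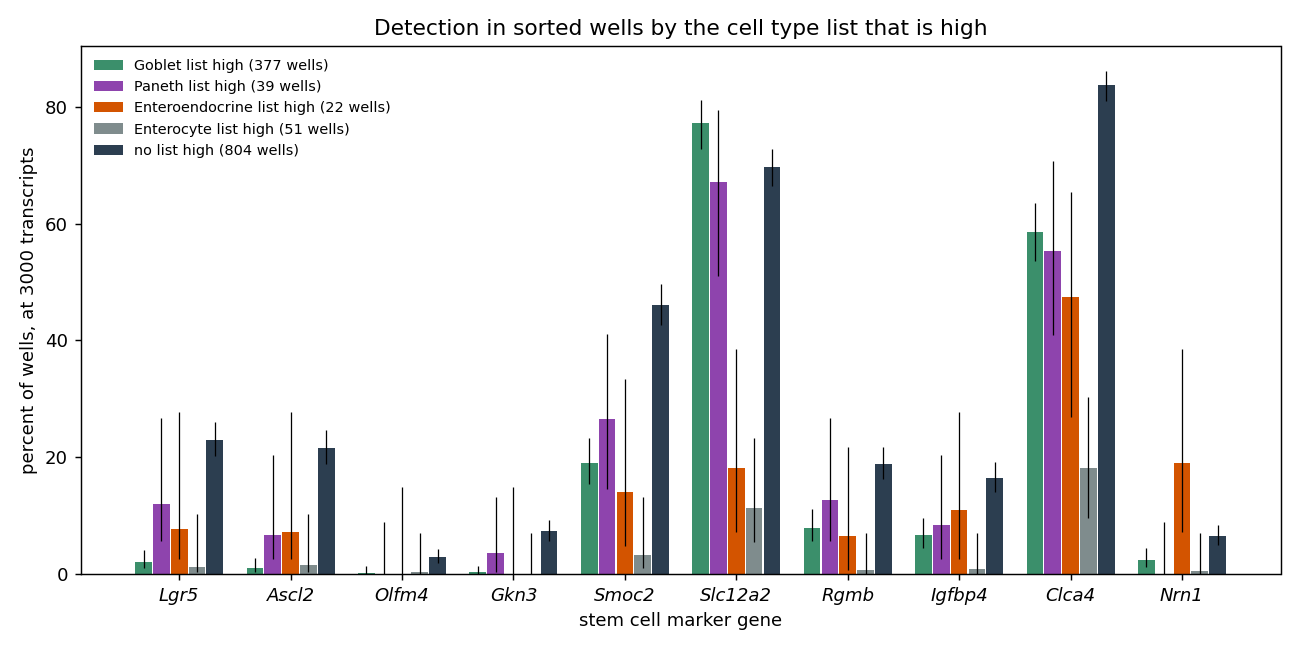
Percent of sorted wells in which each marker gene was found at 3000 transcripts, by the cell type list that took at least 3% of the well's transcripts; bars are shares and lines 95% Wilson intervals. Lgr5, Ascl2, Gkn3 and Smoc2 are highest in wells high in no list, while Slc12a2 reaches 77.2% in goblet-high wells, most of which come from GK5b plates.

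In picked clumps, which may join a stem cell to a Paneth cell, Lgr5 was found in 11.8% of 40 Paneth-high wells (5.46% to 26.1%), 7.48% of the wells high in none, which made up 70.3% of the picked wells, (4.46% to 11.7%) and 4.74% of 38 goblet-high wells (1.46% to 17.3%). The intervals overlap. Paneth-high wells thus gave 11.8% in picked and 12.05% in sorted plates, and wells high in none gave 7.48% in picked and 23.05% in sorted plates. By plate, wells high in none gave 9.22%, 8.80% and 5.29% in picked plates, against 5.72% in GK5b plate 1 and 21.3% to 31.4% in the other sorted plates, so the groups overlapped through GK5b plate 1. Rgmb was found in 1.85%, 4.29% and 2.00% of wells high in none in picked plates, against 4.88% in GK5b plate 1 and 17.995% to 28.3% in the other sorted plates.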

How the data were processed

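The 10 tables deposited, 1 per plate of 384 wells, were used. The submitters' processing notes name BWA 0.6.2-r126 and mm10. Strand handling and the counter were not given there. The deposited values are the authors' transcript estimates, corrected for barcode collisions; with 4096 barcodes 100% map back to whole barcode counts (tolerance 0.001). They were recorded as another unit than counts, so no count model was run. Spike-ins were left out. Wells with at least 1000 transcripts were summed per plate, scaled by TMM and tested with limma 3.58.1 (R 4.3.3) on log2(CPM + 1), 2-sided, Benjamini-Hochberg at 0.05, over genes that reached 10 transcripts (scaled to the median library) in 3 plates (2 for GK5b against GK5a) and 15 in all. In the index fits a gene needed 3 expected transcripts, and a plate 5 positive wells; the index gene was left out, and CPM there are of the summed wells without TMM. Detection and sharing at 3000 transcripts are exact hypergeometric expectations, except the positive calls, wells by number of genes held, and all-gene ratios, which use 1 seeded draw. Counting errors are for 122 to 264 wells per plate. No doublet caller was run, since clumps were picked on purpose. The 10 genes and the lists were chosen with earlier results of these data known. Named genes are the 10, the 10 highest and 5 lowest other genes called in the Lgr5 fit, and called members of the Wnt and proliferation lists (1 of the 10 highest is not reported here); genes of other lists, and those that missed the test, were picked after their values were seen. Positions are from GENCODE vM21 and promoters from RefSeq. The fits were checked on simulated data.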

Additional observations from a re-analysis of the deposited data

Results flagged for a closer look

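In GK5b plate 1 Lgr5 stood at 11.8 CPM, with the next sorted plate at 67.7 CPM, and Smoc2 at 113.6 CPM, with the next at 170 CPM; each lay further from the other 6 sorted plates than Dixon's 95% limit allows. Nrn1 was found in 2.84% of the wells of that plate at 3000 transcripts, with the next at 5.03%. In GK5a plate 1 Rgmb stood at 95.4 CPM, with the next of the 5 GK5a plates at 57.2 CPM. Of 40 groups of values looked at, 4 had such a plate, and chance flags about 1 in 20.

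The change of 5 genes in Lgr5-positive wells differed between picked and sorted plates by an interaction test (limma, 2 picked and 7 sorted plates). Over all genes, 5.21% were called lower. The differences were -1.698 for Ascl2, -1.60 for Smoc2, -0.90 for Slc12a2, -3.02 for Igfbp4 and -1.96 for Clca4 on the log2 scale. Gkn3 gave -2.11, but it was too low to be tested in the picked plates alone, and its value there leans on the pseudocount. Per plate, the change of Igfbp4 was 0.44 in picked plate 1 and -2.95 in picked plate 2, against 1.09 to 2.49 in sorted plates. Ascl2, Smoc2 and Clca4 also rose in picked plate 1 and fell in picked plate 2, while Slc12a2 rose in both. Picked plate 2 had only 5 Lgr5-positive wells, and without it the difference of Igfbp4 was -1.33.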

How the results depend on the processing

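The rise in Lgr5-positive wells passed for every marker tested in 19 of 21 alternatives. The exceptions were all plates together, where Igfbp4 missed (1.09, limma, adjusted p = 0.110), and picked plates alone, where 0 of 7 passed and Smoc2 (-0.10), Igfbp4 (-1.26) and Clca4 (-0.52) turned sign. No other change of sign touched a value that had passed. For picked against sorted plates, signs turned against GK5b alone for Lgr5 (0.37) and Ascl2 (0.62), with library totals for Olfm4 (-0.0778) and Igfbp4 (-0.25), and for Igfbp4 with voom weights (-0.0307) and with mean CPM per well (-0.26). For GK5b against GK5a they turned for Olfm4 with mean CPM per well (-0.0558), for Gkn3 (0.11) and Clca4 (0.21) without marker-high wells, and for Slc12a2 with voom weights (0.0053) and in wells of at least 3000 transcripts (0.0706). 
As shares of the genes tested, picked against sorted called 32.2% (21.3% with voom, under which Gkn3, Rgmb and Nrn1 missed, and 15.6% against GK5b alone). GK5b against GK5a called 1388 genes (1.74% of those tested without marker-high wells), and with no filter on low genes neither Lgr5 nor Ascl2 passed. Lgr5-positive wells called 25.8% (36.8% with at least 2 Lgr5 transcripts at full depth, 14.7% from thinned wells, 12.9% with all plates, 0.232% in picked plates alone). The Olfm4 fit called 3.33% (4.12% at 5000 transcripts), Gkn3 935 genes (11.4% at 2000), Rgmb 18.8% (12.5% at 2000, 11.1% at 5000) and Nrn1 3.81% (0.52% at 5000), and Olfm4 at 2000 gave no fit. The median pair ratio of 1.62 was 1.15 in picked plates alone and 1.44 without marker-high wells.
Leaving out 1 plate in turn, the share called lay between 1.94% (without GK5b plate 1) and 15.4% for GK5b against GK5a. For the picked minus sorted change in Lgr5-positive wells 487 genes were called in the full fit, and the share called was 43.6% without picked plate 1, 0 without picked plate 2 (955 genes at unadjusted p under 0.05) and 1.82% to 5.55% without a sorted plate, and Rgmb lay between -1.21 and 0.70. For picked against sorted plates Ascl2 lay between -0.55 and 0.10, Olfm4 between -0.0645 and 0.42, and Igfbp4 between -0.19 and 0.21. For GK5b against GK5a Gkn3 lay between -1.31 and 0.67, Slc12a2 between -0.26 and 0.29, Igfbp4 between -0.62 and 0.57, Clca4 between -0.55 and 0.38, and Nrn1 between -0.55 and 0.0714. The causes were not tested.
No paired analysis was possible because replicate numbers were given in accession order or name plates within 1 experiment, and pair nothing across groups. Olfm4, Gkn3 and Nrn1 were found in the smallest shares of sorted wells, and the part of depth in this was not tested.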
